A study of Homo sapiens with 6 samples.

Results

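Axon guidance genes of the ephrin and semaphorin systems were examined in A549 cells, an established human cell line from a lung adenocarcinoma, with and without the MIR21 gene. The members were all protein-coding genes of the deposited table whose symbol names a semaphorin of classes 3 to 7, a plexin, a neuropilin, an EPH receptor or an ephrin. By this rule, which used no measured value, 53 of the 58174 listed genes were taken, 20 of them semaphorins, 9 plexins, 2 neuropilins, 14 EPH receptors (9 EPHA and 5 EPHB) and 8 ephrins (5 EFNA and 3 EFNB). PolyA RNA-seq compared 3 libraries of parental cells (Ctrl) with 3 libraries of cells carrying a CRISPR/Cas9 deletion in the MIR21 locus (MIR21-KO). Both groups were grown without any treatment and harvested 48 h after seeding. MIR21-KO cells had been grown from single cells sorted after transfection of Cas9 with guide RNAs, and Ctrl cells were parental cells, so that clonal differences and effects of the deletion cannot be told apart. The study describes its samples as independent and its experiments as biological replicates. How many clones stand behind the 3 MIR21-KO libraries is not given in the sources used here, and p-values do not cover differences between clones if there was only 1.

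Ephrins are membrane-bound ligands. Those of the A type are held by a lipid anchor and those of the B type by a transmembrane segment, and both bind EPH receptors, the largest family of receptor tyrosine kinases, on touching cells. Semaphorins of class 3 are secreted. Most act through complexes of a neuropilin, which binds the ligand, and a plexin, which signals to small GTPases and the cytoskeleton. Class 4 semaphorins, by contrast, are transmembrane proteins that bind plexins directly. Both systems were described in growing axons and vessels, and they also control adhesion, repulsion and migration of epithelial and carcinoma cells.

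Mature miR-21-5p is the product lost upon MIR21 deletion, and let-7 is another miRNA family followed by the study in these cells. Both sequences (RefSeq, GRCh38.p14; miR-21-5p at chr17:59841273-59841294, let-7a-5p of MIRLET7A1 at chr9:94175962-94175983, both on the plus strand) are printed 5′ to 3′ with the seed, bases 2 to 8, in capitals. Below them stand the 23-base stretches of guidance transcripts around a match to a seed, read on the transcript strand from the longest annotated 3′ UTR (GENCODE 29, GRCh38), with the matching heptamer in capitals. All 6 members with a miR-21-5p match are shown, and for let-7 the 6 members with a match whose level differed at an FDR under 0.01.
hsa-miR-21-5p: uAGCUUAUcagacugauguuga
EPHA4, chr2:221419084-221419106, minus strand: accgtggccatttatATAAGCTa
EFNA1, chr1:155134172-155134194, plus strand: actcccaccacaggcATAAGCTa
SEMA3E, chr7:83363503-83363525, minus strand: ttaaatggcttacttATAAGCTa
PLXNA3, chrX:154476571-154476593, plus strand: gaaagtgtcatcttcATAAGCTg
PLXNB2, chr22:50277597-50277619, minus strand: gcacgcgcacggagcATAAGCTg
SEMA3A, chr7:83958284-83958306, minus strand: atggtgttaaggaacATAAGCTc
hsa-let-7a-5p: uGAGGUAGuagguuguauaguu
NRP2, chr2:205778450-205778472, plus strand: atttcaagaagtgtcCTACCTCa
PLXND1, chr3:129555904-129555926, minus strand: tgcagcccagaaactCTACCTCa
SEMA4G, chr10:100985265-100985287, plus strand: gctcctacccctgtcCTACCTCa
SEMA3F, chr3:50188754-50188776, plus strand: cagggccaccccactCTACCTCc
EPHB2, chr1:22915828-22915850, plus strand: ggggagccaaggagaCTACCTCt
SEMA4D, chr9:89376848-89376870, minus strand: cgccctggggaacttCTACCTCt

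Levels are given as deposited FPKM, which correct for library size and the length of a gene and so allow comparison between genes. Whole reads could be recovered from them, and these summed to between 10631667 and 14345209 per library, so that 1 read on 1 kb of transcript was worth 0.0731 to 0.0930 FPKM. Counts of reads across genes differed more between MIR21-KO libraries (chi-square per degree of freedom 7.70 to 32.8, highest for replicates 1 and 3) than between Ctrl libraries (2.69 to 5.30), and most between the groups (50.2 to 77.2). MIR21 was listed at 0 in all 6 libraries, so polyA reads do not check the deletion, while the overlapping gene VMP1 was at 75.1 ± 3.83 FPKM in Ctrl and 142.5 ± 7.18 FPKM in MIR21-KO (SD, n = 3). Keratins marked all libraries as epithelial (summed level of 6 epithelial markers 1684 to 1807 FPKM in Ctrl and 1217 to 1745 FPKM in MIR21-KO), but CDH1, the adhesion protein of epithelial junctions, fell (log2 fold change -1.48, FDR 0.000175). KRT18 was lower without overlap of the groups but not called (-0.69, FDR 0.0153), and KRT7, KRT8 and KRT19 were not called either. EPCAM was low, at 1.19 ± 0.523 FPKM in Ctrl and 0.695 ± 0.288 FPKM in MIR21-KO (FDR 0.273). Summed markers of endothelial cells reached at most 0.175 FPKM. Summed leukocyte markers were at 3.32 to 3.80 FPKM in Ctrl and 3.33 to 5.38 FPKM in MIR21-KO, nearly all of it CD14 (log2 fold change 0.28, FDR 0.285). Summed neuronal markers were at 22.7 to 24.8 FPKM in Ctrl and 40.5 to 42.5 FPKM in MIR21-KO, of which SNAP25 accounted for most and STMN2 was at 0, and summed fibroblast markers at 7.51 to 8.36 and 12.9 to 13.1 FPKM. Of these 10 neuronal and fibroblast markers 5 were abundant enough to be tested. SNAP25 and THY1 were called higher, whereas SYT1 (log2 fold change -0.16), LUM (-0.19) and COL1A1 (0.18) were not called. Below the minimum for testing, RBFOX3 was at 0.516 ± 0.0505 FPKM in Ctrl and 0.0751 ± 0.0188 FPKM in MIR21-KO. MAP2, also below it, went the other way, at 0.102 ± 0.0260 FPKM in Ctrl and 0.590 ± 0.155 FPKM in MIR21-KO. The part of these markers in the results was not tested.

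Of the 53 guidance genes, 33 had a mean of at least 0.5 FPKM over the 6 libraries and were tested, together with all 16006 genes above this minimum, by limma on log2(FPKM + 0.1). At an FDR under 0.01, 9 guidance genes rose upon MIR21 deletion and 3 fell. These are 27.3% and 9.09% of the tested members, beside 7.66% called higher and 8.38% called lower among all genes tested (16.0% in either direction), and 9.10% and 10.6% among the 11719 protein-coding genes tested. The genes that rose were EFNB3, SEMA3F, SEMA3B, EPHA4, PLXNA3, PLXND1, NRP2, NRP1 and EPHB2, and those that fell were SEMA4D, SEMA4G and EPHA2. The fold change was positive for 24 of the 33, with a median log2 fold change of 0.21, whereas it was positive for 48.5% of all genes tested, whose median was -0.017. Values of the 3 MIR21-KO libraries lay wholly above those of Ctrl for 18 members and wholly below for 8, beside 22.8% and 25.2% of all genes tested. In such bulk samples, fewer cells with a transcript and less of it per cell cannot be told apart.

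**Figure D1:**
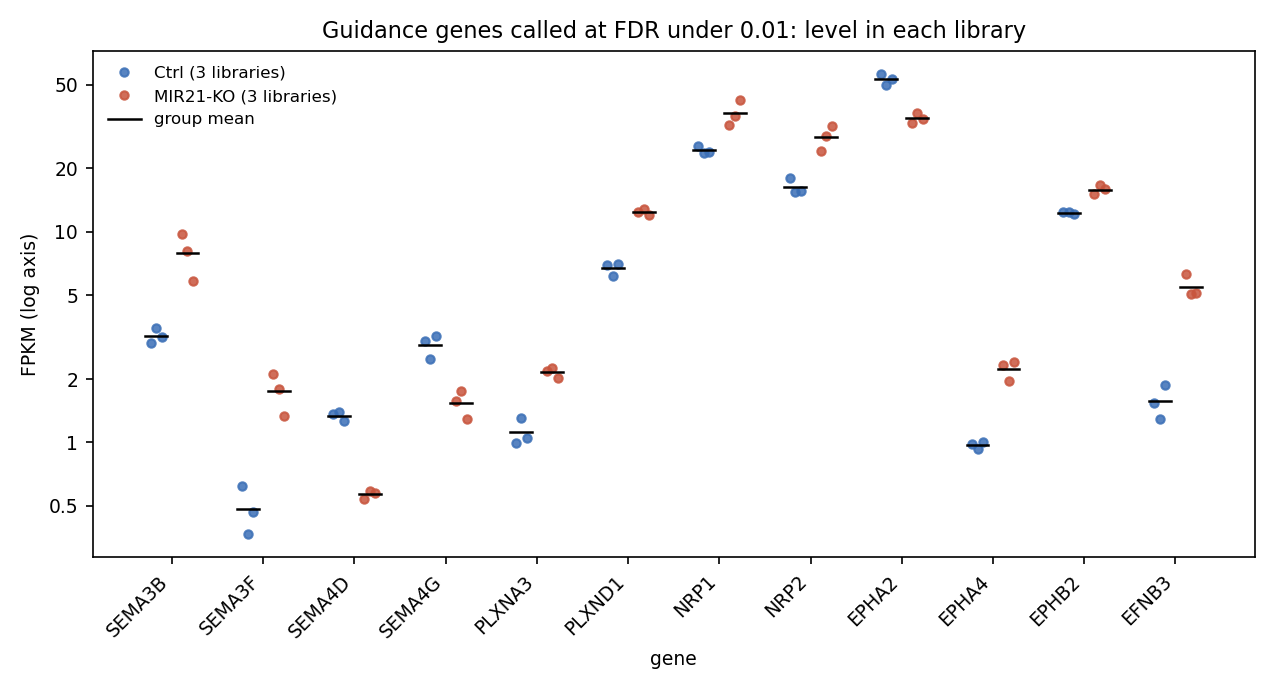
Level in FPKM (log axis) of the 12 guidance genes called at an FDR under 0.01, 1 point per library, blue for Ctrl and red for MIR21-KO, with lines at the group means. The groups do not overlap for any of the 12, and the levels span from 0.366 FPKM for SEMA3F in Ctrl to 56.3 FPKM for EPHA2 in Ctrl.

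Among the secreted class 3 semaphorins, SEMA3B and SEMA3F rose. Both are held to be tumor suppressors from a segment of the short arm of chromosome 3 that is often lost in lung cancer. SEMA3B was at 2.98, 3.48 and 3.16 FPKM in Ctrl replicates 1 to 3 and at 9.80, 8.13 and 5.84 FPKM in MIR21-KO replicates 1 to 3. The MIR21-KO libraries thus spread more than Ctrl yet stayed above it, with a log2 fold change of 1.25 ± 0.19 (SE; FDR 0.00388). SEMA3F was at 0.619, 0.366 and 0.470 FPKM (19 to 38 reads) in Ctrl and at 2.11, 1.79 and 1.34 FPKM (84 to 139 reads) in MIR21-KO. Again no library of one group reached the other, and the log2 fold change was 1.66 ± 0.26 (FDR 0.00441). With Ctrl replicate 1, 2 or 3 or MIR21-KO replicate 2 left out, SEMA3B was not called (FDR 0.0151 to 0.0229), and SEMA3F was not called in these fits nor without MIR21-KO replicate 1 (FDR 0.0108 to 0.0281).

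SEMA3F (chr3:50155045-50189075) and SEMA3B (chr3:50267558-50277546) lie on the same strand in a window of 122502 bases. Of the genes between them only GNAI2, an inhibitory G protein subunit, was expressed above a few FPKM, at 11.55 ± 0.368 FPKM in Ctrl and 15.7 ± 1.81 FPKM upon MIR21 deletion, and it was not called (log2 fold change 0.43, FDR 0.0178). The antisense genes of both semaphorins were not called either. That of SEMA3F, which shares 110 exonic bases with it, was higher without overlap of the groups (log2 fold change 0.49, 95% interval 0.03 to 0.94, FDR 0.0962). That of SEMA3B had at most 1 read per Ctrl library and 7 per MIR21-KO library, too few to compare (1.87, -0.13 to 3.87, FDR 0.137).

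SEMA3C, a class 3 semaphorin that many carcinomas secrete, was the most abundant guidance ligand. It was at 47.0, 39.4 and 43.5 FPKM in Ctrl and at 35.8, 45.1 and 63.2 FPKM in MIR21-KO. The groups overlapped, and the 95% interval of the log2 difference ran from -0.36 to 0.59 (0.11, FDR 0.698). Without MIR21-KO replicate 3, the highest library, the log2 difference was -0.10. SEMA3A, the founding repellent of sensory axons, was at 3.01 ± 0.266 FPKM in Ctrl and 2.17 ± 0.320 FPKM in MIR21-KO without reaching the threshold (log2 fold change -0.46, FDR 0.0564).

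The transmembrane class 4 semaphorins held both semaphorins that fell. SEMA4D, the ligand of PLXNB1, was at 1.36, 1.40 and 1.27 FPKM in Ctrl and at 0.539, 0.588 and 0.577 FPKM in MIR21-KO. Libraries of each group lay close together and far from the other, with a log2 fold change of -1.11 ± 0.19 (FDR 0.00532). SEMA4G was at 2.90 ± 0.371 FPKM in Ctrl and 1.54 ± 0.235 FPKM upon deletion (log2 fold change -0.87 ± 0.17, FDR 0.00909). Its value is less certain, since 22.27% of its exonic length (1170 bases) is shared with MRPL43 on the opposite strand, a gene at 14.8 to 20.5 FPKM, and whether reads were counted by strand is not stated. The call for SEMA4G was lost without any single library (FDR 0.0124 to 0.0431), and that for SEMA4D without Ctrl replicate 1, 2 or 3 or MIR21-KO replicate 1 or 2 (FDR 0.0131 to 0.0303).

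Other semaphorins did not pass the threshold. SEMA4C, the ligand of PLXNB2, was at 3.80 ± 0.252 and 5.39 ± 0.394 FPKM in Ctrl and MIR21-KO (log2 fold change 0.49, FDR 0.0120). The more abundant SEMA4B was at 18.3 ± 0.635 and 21.1 ± 0.751 FPKM (0.20, FDR 0.0614). For SEMA4F the log2 fold change was 0.33 (FDR 0.0698), for SEMA6C 1.05 (FDR 0.0138) and for SEMA6B -0.58 (FDR 0.0399). In all 5 the groups did not overlap, beside 22.8% of all genes tested with MIR21-KO wholly higher and 25.2% with it wholly lower. The summed semaphorin level was 92.9 ± 2.46 FPKM in Ctrl and 101.9 ± 9.20 FPKM in MIR21-KO, with SEMA3C making up 43.5 to 49.2% and 38.5 to 56.7% of it.

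Receptors of the semaphorins included 2 plexins and both neuropilins that rose, and none that fell. PLXND1, a plexin of vessel endothelium that is the receptor of SEMA3E, was at 6.96, 6.18 and 7.06 FPKM in Ctrl and at 12.4, 12.8 and 11.99 FPKM in MIR21-KO. The difference far exceeded the spread within either group (log2 fold change 0.87 ± 0.084, FDR 0.000678), and the call was kept with each library left out in turn (FDR 0.00105 to 0.00706). PLXNA3, which pairs with NRP2 to receive SEMA3F, was at 1.12 ± 0.161 FPKM in Ctrl and 2.16 ± 0.127 FPKM upon deletion (log2 fold change 0.89 ± 0.16, FDR 0.00650). This call was lost without Ctrl replicate 1, 2 or 3 or MIR21-KO replicate 1 or 2 (FDR 0.0131 to 0.0366).

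The most abundant plexin, PLXNB2, was not called. It was at 32.4, 31.4 and 32.3 FPKM in Ctrl and at 30.6, 29.997 and 27.6 FPKM in MIR21-KO. MIR21-KO values were slightly lower in every library, and the 95% interval of the log2 difference was -0.29 to 0.04 (-0.13, FDR 0.216). PLXNB3 had a larger difference at a low level (0.463 ± 0.0793 and 1.02 ± 0.0560 FPKM, log2 fold change 1.001, FDR 0.0204), though 20.44% of its exonic length is shared with SRPK3 on the same strand, a gene at 0 to 0.124 FPKM, which makes its value uncertain. PLXNA1 and PLXNB1 each differed by 0.21 on the log2 scale (FDR 0.160 and 0.250) with overlapping groups. Summed plexin levels were 50.2 ± 1.72 FPKM in Ctrl and 56.5 ± 1.67 FPKM in MIR21-KO.

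Neuropilins, co-receptors of class 3 semaphorins and of VEGF, were expressed at higher levels than any plexin except PLXNB2, which NRP1 exceeded in every MIR21-KO library. NRP1, the binding partner of SEMA3A, was at 25.6, 23.8 and 24.1 FPKM in Ctrl and at 32.2, 35.6 and 42.3 FPKM upon deletion (log2 fold change 0.57 ± 0.11, FDR 0.00894). NRP2, the binding partner of SEMA3F, was at 18.0, 15.5 and 15.7 FPKM in Ctrl and at 24.2, 28.6 and 31.8 FPKM in MIR21-KO (0.77 ± 0.12, FDR 0.00403). For both genes every MIR21-KO library exceeded every Ctrl library, and their summed level was 40.9 ± 2.37 FPKM in Ctrl and 64.9 ± 8.85 FPKM in MIR21-KO. Both calls were lost without Ctrl replicate 1, 2 or 3 or MIR21-KO replicate 2 (FDR 0.0301 to 0.0402 for NRP1 and 0.0122 to 0.0237 for NRP2).

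**Figure D2:**
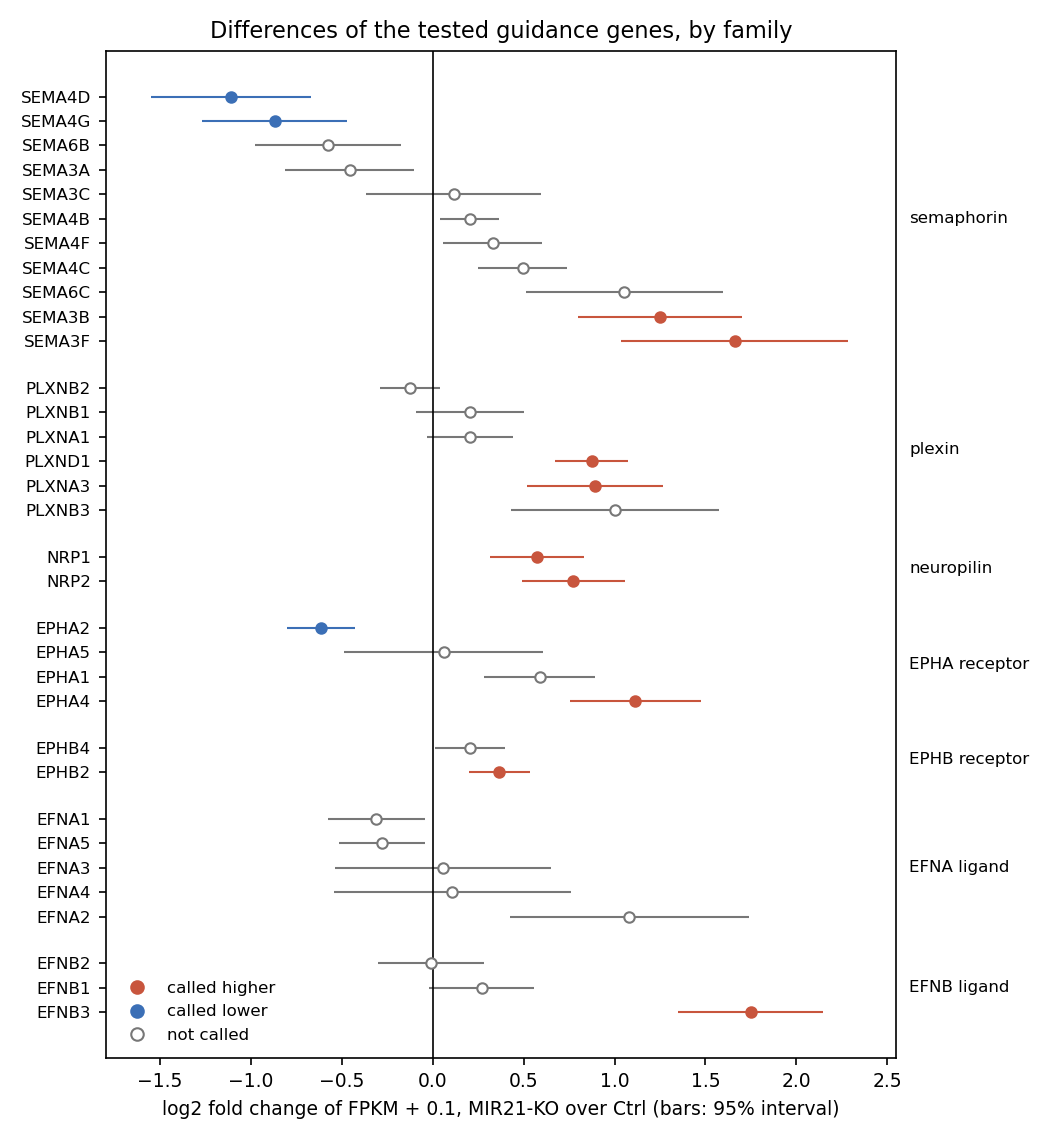
Log2 fold change of FPKM + 0.1, MIR21-KO over Ctrl, with its 95% interval for the 33 tested guidance genes grouped by family. Filled red points were called higher, filled blue points lower, and open points not called. On this scale EFNB3 has the highest fold change (1.75), ahead of SEMA3F (1.66), SEMA4D the lowest (-1.11), and both neuropilins are called higher.

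On the ephrin side the most abundant receptor fell. EPHA2, a receptor kinase abundant in many carcinomas, was at 56.3, 50.01 and 53.0 FPKM in Ctrl and at 32.9, 36.6 and 34.3 FPKM in MIR21-KO. All MIR21-KO libraries were below all Ctrl libraries, with a log2 fold change of -0.62 ± 0.079 (FDR 0.00203). EPHA2 made up 63.6 to 66.5% of the summed EPH receptor level in Ctrl and 47.9 to 50.3% in MIR21-KO, and this sum was 81.3 ± 3.10 and 70.4 ± 2.101 FPKM. EPHA4, a receptor that binds ephrins of both types, was at 0.988, 0.935 and 1.01 FPKM in Ctrl and at 2.34, 1.96 and 2.42 FPKM in MIR21-KO. It rose with a log2 fold change of 1.11 ± 0.15 (FDR 0.00249) but stayed far below EPHA2 in level. The call for EPHA2 was lost without Ctrl replicate 1 or 3 or MIR21-KO replicate 2 (FDR 0.0109 to 0.0150), and that for EPHA4 without Ctrl replicate 1, 2 or 3 or MIR21-KO replicate 2 (FDR 0.0106 to 0.0134).

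EPHA1, the first EPH receptor described, was at 1.59 ± 0.140 FPKM in Ctrl and 2.44 ± 0.0623 FPKM in MIR21-KO, just outside the threshold (log2 fold change 0.59, FDR 0.0141). EPHA5 did not differ beyond its spread (0.06, 95% interval -0.49 to 0.61, FDR 0.864). Of the B receptors, EPHB2 was at 12.4, 12.4 and 12.1 FPKM in Ctrl and at 15.1, 16.7 and 15.9 FPKM in MIR21-KO. Its rise was the smallest of the 9 (log2 fold change 0.37 ± 0.071, FDR 0.00925). That call was lost without any single library other than MIR21-KO replicate 1 (FDR 0.0101 to 0.0515). EPHB4, the receptor of EFNB2 in veins, was at 11.4 ± 0.450 and 13.2 ± 0.910 FPKM (0.21, FDR 0.0973).

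EFNB3, a transmembrane ephrin known as a midline barrier for axons in the spinal cord, rose more than 3-fold, as did SEMA3F. It was at 1.54, 1.30 and 1.88 FPKM in Ctrl (45 to 83 reads) and at 6.29, 5.07 and 5.12 FPKM in MIR21-KO (200 to 276 reads). Means differed 3.49-fold, and the log2 fold change was 1.75 ± 0.17 (FDR 0.000678). EFNB3 (chr17:7705202-7711378) remained called with each library left out (FDR 0.00142 to 0.00562).

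No other ephrin was called. EFNA1, the main ligand of EPHA2, was at 17.05, 15.1 and 16.3 FPKM in Ctrl and at 13.7, 14.4 and 11.2 FPKM in MIR21-KO. These groups did not overlap, but the difference missed the threshold (log2 fold change -0.31 ± 0.11, FDR 0.0771). EFNB2, the arterial partner of EPHB4, was at 6.39, 6.13 and 5.67 FPKM in Ctrl and at 5.15, 6.21 and 6.81 FPKM in MIR21-KO. Its groups overlapped, with an interval of -0.30 to 0.28 around a log2 difference of -0.01 (FDR 0.962), and the sign turned without Ctrl replicate 1 (0.029) or MIR21-KO replicate 1 (0.10).

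For the remaining ephrins, the log2 fold changes were 1.08 for EFNA2 (FDR 0.0254), -0.28 for EFNA5 (FDR 0.0717), 0.27 for EFNB1 (FDR 0.138), 0.11 for EFNA4 (FDR 0.793) and 0.06 for EFNA3 (FDR 0.884). EFNA4, EFNA3 and EFNA1 are neighbours within 71127 bases of chromosome 1, and none of them was called. An overlapping annotated gene on the same strand, which shares 44.68% of the exonic length of EFNA3 and 14.96% of that of EFNA4, was listed at 0 in all libraries, so both values are uncertain. The summed ephrin level was 40.3 ± 1.23 FPKM in Ctrl and 42.8 ± 4.04 FPKM in MIR21-KO.

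**Figure D3:**
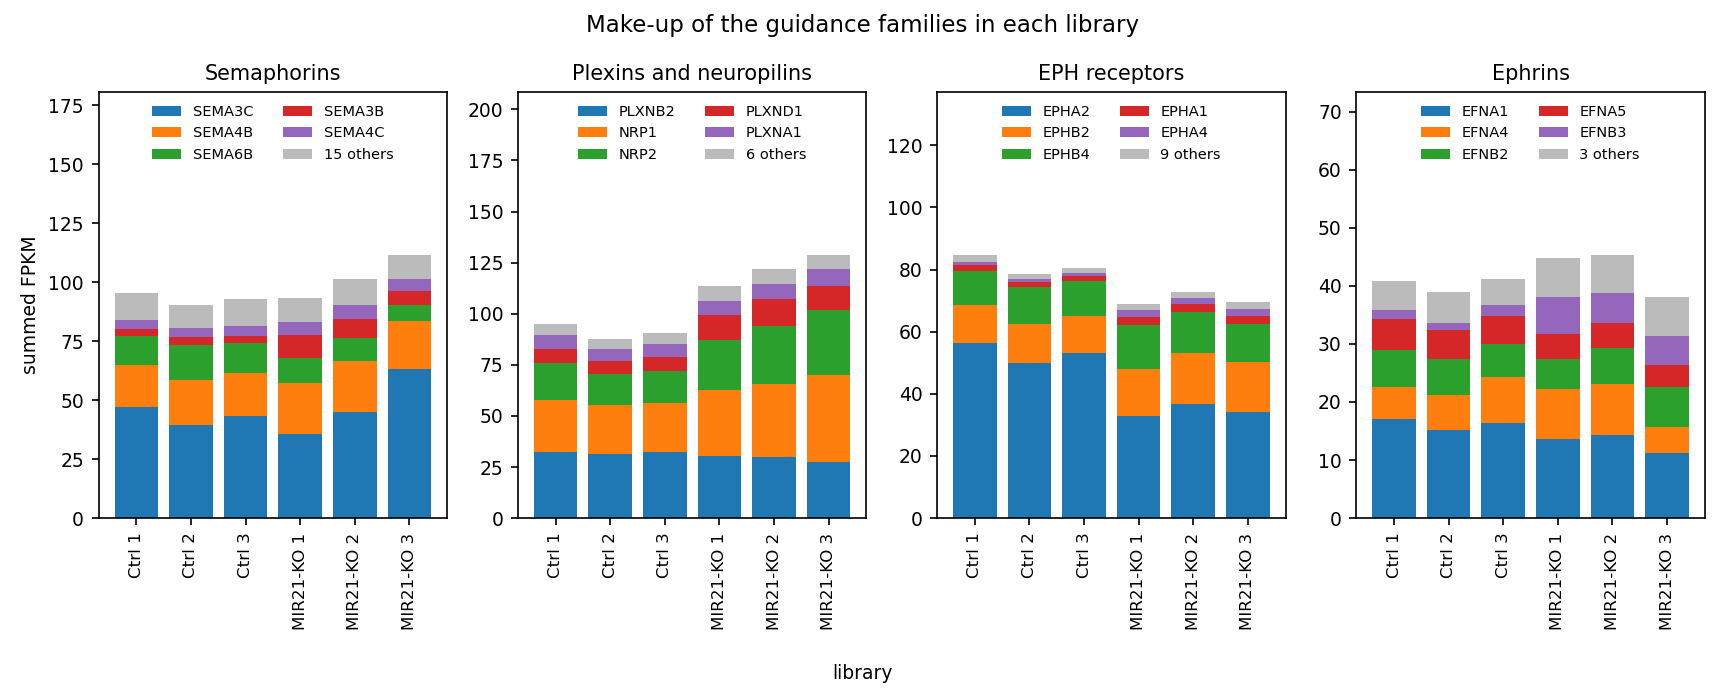
Summed FPKM of semaphorins, of plexins with neuropilins, of EPH receptors and of ephrins in each of the 6 libraries, with the 5 most abundant members of each panel as colored segments and the others in grey. Segments of NRP1, NRP2 and PLXND1 are taller in every MIR21-KO library than in every Ctrl library, and that of EPHA2 is shorter.

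Some of the ligands and receptors known to pair were set side by side, and not all pairings are listed. EFNB3 rose, as did EPHA4, which binds ephrins of both types. SEMA3F and the receptor parts named for it above, NRP2 and PLXNA3, rose. PLXNA1, the most abundant plexin-A gene, was not called (FDR 0.160), nor was SEMA3C, the most abundant class 3 semaphorin (FDR 0.698). In the pairs of SEMA4C with PLXNB2 and of EFNB2 with EPHB4, neither gene was called. EPHA2 fell while its ligand EFNA1 was not called. SEMA4D fell, and its receptor PLXNB1 was not called. NRP1 rose, whereas its partner SEMA3A was not called (log2 fold change -0.46). PLXND1 rose, whereas its ligand SEMA3E was below 0.5 FPKM and was called lower with a minimum mean of 10 reads (FDR 0.00317).

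The other 20 members were below the minimum of 0.5 FPKM. EPHA3, EPHA8, SEMA5A and SEMA6D were listed at 0 in all libraries. The highest single values of the others were 0.417 FPKM for SEMA7A, 0.356 for EPHB3, 0.331 for SEMA3E, 0.299 for EPHA10, 0.258 for EPHB1, 0.160 for PLXNA2, 0.146 for PLXNA4 and 0.104 for EPHA6, and at most 0.0817 for PLXNC1, SEMA4A, SEMA6A, SEMA3G, EPHB6, SEMA5B, EPHA7 and SEMA3D. With a minimum mean of 10 reads in place of 0.5 FPKM, 40 members could be tested (10.4% of the 15795 genes then tested were called higher and 10.1% lower), of which 11 were called higher and 4 lower. SEMA3E, the ligand of PLXND1, was then called lower, at 0.268, 0.331 and 0.217 FPKM in Ctrl and 0.0218, 0.0242 and 0.0800 FPKM in MIR21-KO (FDR 0.00317). These values rest on 67 reads in all Ctrl libraries and 11 in all MIR21-KO libraries, a 6.37-fold lower level with an exact 95% interval of 3.34 to 13.4 for counting error only. EPHB3 (FDR 0.0132), EPHA10 (FDR 0.0224), PLXNA4 (FDR 0.0350), SEMA7A (FDR 0.269), EPHB1 (FDR 0.405) and PLXNA2 (FDR 0.443) were tested under this minimum and not called.

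Tested members with a miR-21-5p match, whose sequences are printed above, were called higher or not called. Those with a let-7 match were called in both directions. A heptamer complementary to the miR-21-5p seed (ATAAGCT, transcript strand only) occurred in the longest 3′ UTR of 5 of the 33 tested members (15.15%) and of 1230 of 11657 tested coding genes (10.55%). Of these 5, EPHA4 (log2 fold change 1.11) and PLXNA3 (0.89) rose, whereas PLXNB2 (-0.13), SEMA3A (-0.46) and EFNA1 (-0.31) were not called. In EPHA4 and EFNA1, and in SEMA3E below the minimum, the heptamer is followed by an A. SEMA3E was called lower with a minimum mean of 10 reads (FDR 0.00317). The heptamer for let-7 (CTACCTC) occurred in 8 tested members (24.24%) and in 1472 of the coding genes (12.63%). NRP2, PLXND1, EPHB2 and SEMA3F rose and SEMA4D and SEMA4G fell, while SEMA4C and SEMA4F were not called. Median 3′ UTR length was 1673 bases for the members and 1621 bases for all. These matches are descriptions, as it is not known from the deposited values which 3′ UTR A549 cells use.

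Genes that work downstream of or beside these receptors were taken as a list of 44 signalling partners. Of 34 tested, 8 rose (23.5%) and 2 fell (5.88%), with a median log2 fold change of -0.03. Among all genes tested 7.66% rose and 8.38% fell, and among the protein-coding genes tested 9.10% and 10.6%. DPYSL3, a collapsin response mediator protein that carries semaphorin signals to the cytoskeleton, rose from 14.0 ± 1.13 to 45.3 ± 3.87 FPKM (log2 fold change 1.69 ± 0.096, FDR 0.000117). Its relative CRMP1 rose from 0.888 ± 0.05003 to 2.87 ± 0.364 FPKM (1.58 ± 0.15, FDR 0.000678), and DPYSL4 was also called higher. DPYSL5 (0.80, FDR 0.0107) and DPYSL2 (-0.20, FDR 0.112) were not called. ARHGEF16, a guanine nucleotide exchange factor that binds EPHA2, fell from 2.46 ± 0.273 to 0.945 ± 0.109 FPKM (-1.29 ± 0.16, FDR 0.00187). The other partners called were RHOD, MICAL1, L1CAM, NCK2 and NGEF, all higher, and SDCBP, lower. Without Ctrl replicate 1, 2 or 3 or MIR21-KO replicate 2, 2 partners were called higher, beside 2.46 to 3.29% of all genes tested. DPYSL3 and CRMP1 kept their calls with every library left out. The call for ARHGEF16 was lost without Ctrl replicate 2 or 3 or MIR21-KO replicate 2 (FDR 0.0111 to 0.0138).

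Netrin, slit and RGM genes with their receptors, the other classical guidance systems, were a list of 25. Of these 9 were tested, 3 rose (33.3%) and 1 fell (11.1%), with a median log2 fold change of 0.21. Beside them stand the same 7.66% and 8.38% of all genes, and 9.10% and 10.6% of the protein-coding genes tested. NTN4, a laminin-like netrin of basement membranes, fell from 13.8 ± 0.572 to 8.48 ± 0.680 FPKM (-0.70 ± 0.087, FDR 0.00178). SLIT3, a secreted ligand of ROBO receptors, rose from 2.82 ± 0.272 to 5.46 ± 0.468 FPKM (0.93 ± 0.12, FDR 0.00196), and NTNG2, a membrane-anchored netrin, from 0.309 ± 0.0424 to 1.203 ± 0.0766 FPKM (1.67 ± 0.25, FDR 0.00358). ROBO3 was the third gene called higher. The call for NTNG2 was lost without any single library (FDR 0.0120 to 0.0262), that for NTN4 without Ctrl replicate 1 or 3 (FDR 0.0126 to 0.0134) and that for SLIT3 without Ctrl replicate 3 or MIR21-KO replicate 2 (FDR 0.0107 to 0.0130).

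The count of calls depended on the libraries. Without Ctrl replicate 1, 2 or 3, or without MIR21-KO replicate 2, 2 guidance genes were called higher and 0 or 1 lower, and 2.46 to 3.29% of all genes tested were then called higher and 2.36 to 2.52% lower. Without MIR21-KO replicate 1 the counts were 7 and 1 (6.02% and 7.69% of all genes), and without MIR21-KO replicate 3 they were 9 and 2 (10.1% and 11.4% of all genes). Where no gene was called lower (without Ctrl replicate 1 or 3 or MIR21-KO replicate 2), 4, 4 and 7 genes were lower at an unadjusted limma p under 0.05. All 12 called members kept the direction of their fold change in each of these fits. Their groups do not overlap, so leaving out a library could not have changed it. Other settings also ended some calls, those for NRP1 and EPHB2 with scaling by total reads, for EPHB2 with median-ratio scaling, for NRP1, EPHB2, PLXNA3 and SEMA4G without a filter on low values, and for NRP1, NRP2, EPHB2 and SEMA4G without trend and robust fitting.

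**Figure D4:**
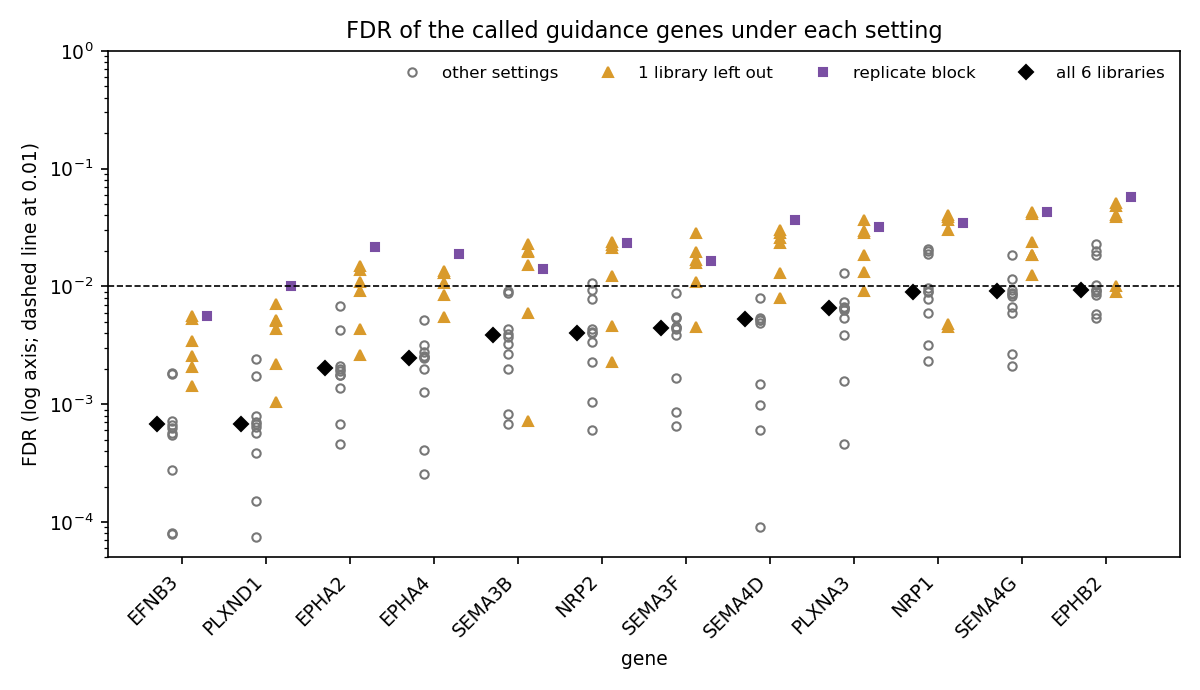
FDR (log axis) of each of the 12 called guidance genes with all 6 libraries (black diamonds), with 1 library left out (orange triangles), with the replicate number as a block (purple squares) and under the other settings (open circles), beside a dashed line at the threshold of 0.01. EFNB3 stays below the line under every setting shown, and PLXND1 under all but the block (0.0102).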

How the data were processed

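Sample titles gave the groups and replicate numbers. Per the labels, polyA RNA was made into strand-specific Illumina HiSeq libraries. The submitters' processing notes name cutadapt 1.14, HISAT2 2.1.0, SAMtools 1.5, featureCounts 1.5.3, edgeR 3.18.1 and hg38. The annotation and the strand setting of the counting are not given in the sources used here. The authors deposited 1 table with gene length, FPKM per library, and their own fold changes, p-values and FDRs, which were not used. FPKM times length gave whole reads for 100% of values (tolerance 0.01), with library sizes 0.9497 to 1.0304 times the summed reads. A listed 0 stands for 0 reads, but counting error leaves room for a level worth up to 3 reads. Such floors and intervals of reads cover counting error only.

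The test was limma 3.58.1 (R 4.3.3, trend and robust eBayes, two-sided, no covariate) on log2(FPKM + 0.1) for genes averaging 0.5 FPKM or more, a scale that understates changes of low genes. P-values were adjusted over all genes tested by the Benjamini-Hochberg method, and the study's FDR threshold of 0.01 was used for calls. The main test used no count model, and voom on recovered reads was run as an alternative. Procedures were tested on simulated data. Coordinates and 3′ UTRs came from GENCODE 29, which matched 99.42% of identifiers and all 53 members, and promoters were not used. Python 3.11.15 and matplotlib 3.10.9 were used.

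Every called member is named. Those with an absolute log2 fold change of at least 1, and the most abundant member of each family, are given in every library, other tested members by fold change and FDR, members not tested by their highest FPKM, and the 3 genes with the smallest p among those called in each further list. SEMA3E, FYN, MST1R and VAV3 were singled out after their values were seen. Members, lists and tests were chosen with earlier results of these data known. Alternatives were other pseudocounts, filters, scalings and thresholds, protein-coding genes only, limma without trend and robust fitting, voom on recovered reads, a replicate block and leaving out each library.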

Additional observations from a re-analysis of the deposited data

How the results depend on the processing

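Of the guidance genes, 9 were called higher and 3 lower. The higher count was 14 with protein-coding genes only (13.1% of all genes then tested were called higher), 14 at an FDR under 0.05 (15.2%) and 1 with a replicate block (2.37%), beside 7.66% before, and 2 to 9 with single libraries left out. The lower count was 0 with the replicate block (5 at an unadjusted p under 0.05, and 1.7% of all genes called lower) and 0 to 2 with libraries left out. Of the signalling partners, 8 were called higher, 3 with the block and 2 to 7 with libraries left out. Their lower count of 2 was 4 with a minimum mean of 10 reads (10.1% of all genes then tested were called lower). It was 1 with scaling by total reads (9.63%) and 4 at an FDR under 0.05 (16.8%). Without trend and robust fitting it was 1 (5.61%), and with the block 0 (1.7%, with 4 partners at p under 0.05). With libraries left out it was 0 to 5. Of netrin, slit and RGM genes 3 were higher and 1 lower, 0 and 0 with the block (4 and 2 at p under 0.05), and 0 to 2 and 0 to 1 with libraries left out. Of all genes tested, 2.46 to 10.1% were called higher and 2.36 to 11.4% lower with libraries left out. The log2 difference of SEMA3C ranged from -0.10 to 0.31 and that of EFNB2 from -0.097 to 0.10 with libraries left out, with reversed signs at -0.10 without MIR21-KO replicate 3, and at 0.029 without Ctrl replicate 1 and 0.10 without MIR21-KO replicate 1. For these shifts the cause was not tested. Replicate numbers did not pair the libraries (correlations of same-numbered deviations -0.171, -0.018 and -0.017, and no library correlated best with its own number), so a call lost with the block does not speak of a smaller difference. Scaling by median ratios or by total reads shifted the median log2 fold change of all genes by -0.006 and -0.035. With voom on recovered reads, 13 guidance genes were called higher, the same 9 among them, and 3 lower, the same 3. Of all genes tested, voom called 10.5% higher and 11.4% lower. At these depths genes under about 10 reads per library could not be compared.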

Other observations

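Among the signalling partners, 3 genes lay below 0.5 FPKM on average and were called with a minimum mean of 10 reads. Of all genes then tested, 10.4% were called higher and 10.1% lower. VAV3, an exchange factor that EPHA2 recruits, was at 0.952 ± 0.0467 FPKM in Ctrl (72 to 100 reads) and had no read in any MIR21-KO library, which against a floor of 3 reads per library is at least 29.8-fold lower (FDR 1.76e-05). FYN, a kinase that acts in semaphorin and ephrin signalling, had 8 reads in all Ctrl libraries and 122 in all MIR21-KO libraries, a ratio of 14.6 with an exact 95% interval of 7.18 to 34.6 for counting error only (FDR 0.000200). MST1R, a receptor kinase that associates with plexins, had 144 and 39 reads, a 3.86-fold lower level in MIR21-KO (2.69 to 5.65, FDR 0.00299).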
